A study of Drosophila melanogaster with 10 samples.

Results

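The genes described here encode RNA polymerase subunits and general transcription factors of Drosophila. They were chosen by symbol, as those starting with RpI, RpII or RpIII and a number, Taf and a number, TfII or Trf, plus Tbp, and 36 of the 15240 gene symbols of the RNA table matched. The rule reads names only and uses no measured value, although it was chosen with earlier results of these data known. The 36 genes hold 71 of the 30551 transcript entries, with 1 entry for 22 genes and several for 14. The study asked how the polymerization of Polyhomeotic (Ph), a Polycomb group protein, shapes the nucleus of cultured S2 cells, which derive from Drosophila embryos. It deposited 10 samples in 5 groups of 2 replicates, namely ChIP and input DNA of an S2 line with a wild-type Ph transgene (Ph-WT) and of one with a polymerization-defective Ph (Ph-ML), and RNA of S2 cells labelled WT, which carry neither transgene. All groups share the labelled medium, ESF-921, a temperature of 27 °C and a treatment of 3 days with copper sulphate at 0.5 mM, so the S2 RNA is that of copper-treated cells. The values below are those of the 2 S2 RNA libraries, called the first and the second library or replicates 1 and 2, while the 8 ChIP and input samples were not used here. The labels do not say whether the replicates are separate cultures, although the methods of the study call them biological replicates.

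Animal cells divide transcription among RNA polymerase I, which makes the precursor of ribosomal RNA, polymerase II, which makes messenger RNA, and polymerase III, which makes transfer RNA and other small RNAs. At polymerase II promoters the complex TFIID, built of the TATA-binding protein (Tbp) and its associated factors (TAFs), nucleates the assembly of TFIIA, TFIIB, TFIIE, TFIIF and TFIIH with the polymerase. Drosophila also has TBP-related factors, Trf and Trf2, which serve other promoters, and a set of TAF paralogues that act in the male germ line.

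Levels are RPKM, reads scaled to the length of the transcript and to the depth of the library, so levels of different genes may be compared per length. The level of a gene is the median over its transcript entries in a library, and errors are the SD over the 2 libraries. Because each value is a whole number of reads scaled by length and depth, the library sizes could be recovered, at 37054213 reads for replicate 1 and 9495835 for replicate 2, a 3.90-fold difference in depth. Across the members, the transcript with the most reads held at least 39 to 5388 reads in replicate 1 and 6 to 1088 in replicate 2. In bulk RNA, fewer cells that express a gene and less RNA per cell cannot be told apart. The blood cell character for which S2 cells are known was visible, as all 5 plasmatocyte markers examined lay between 5.75 and 71.1 RPKM. Of 7 male germ line markers, topi alone exceeded 1 RPKM, at 22.8 RPKM in the first library and 7.74 in the second. The other 6 summed to 1.45 and 0.650 RPKM, and comr was at 0 in both libraries.

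Nearly all listed genes were expressed, at moderate levels. The mean level was 1 RPKM or more for 34 of the 36 genes (94.4%), against 49.5% of all genes and 50.9% of protein-coding genes. At least 5 RPKM was reached by 27 of them (75.0%), against 29.5% of all genes and 30.4% of protein-coding genes. Their median level was 6.54 RPKM, with medians of 6.60 and 6.95 RPKM in replicates 1 and 2 (SD 0.249, n = 2), where all genes had a median of 0.898 RPKM and protein-coding genes 1.11 RPKM. The highest gene, RpII18, stood at percentile 93.8 of all genes. The 34 genes at 1 RPKM or more spanned a 12.3-fold range. The exceptions were Trf4-2 at 0.844 ± 0.127 RPKM and TfIIA-S-2, which was listed at 0 in both libraries. Both libraries belong to the same group, so the levels are a description of these cells with no test over samples.

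**Figure D1:**
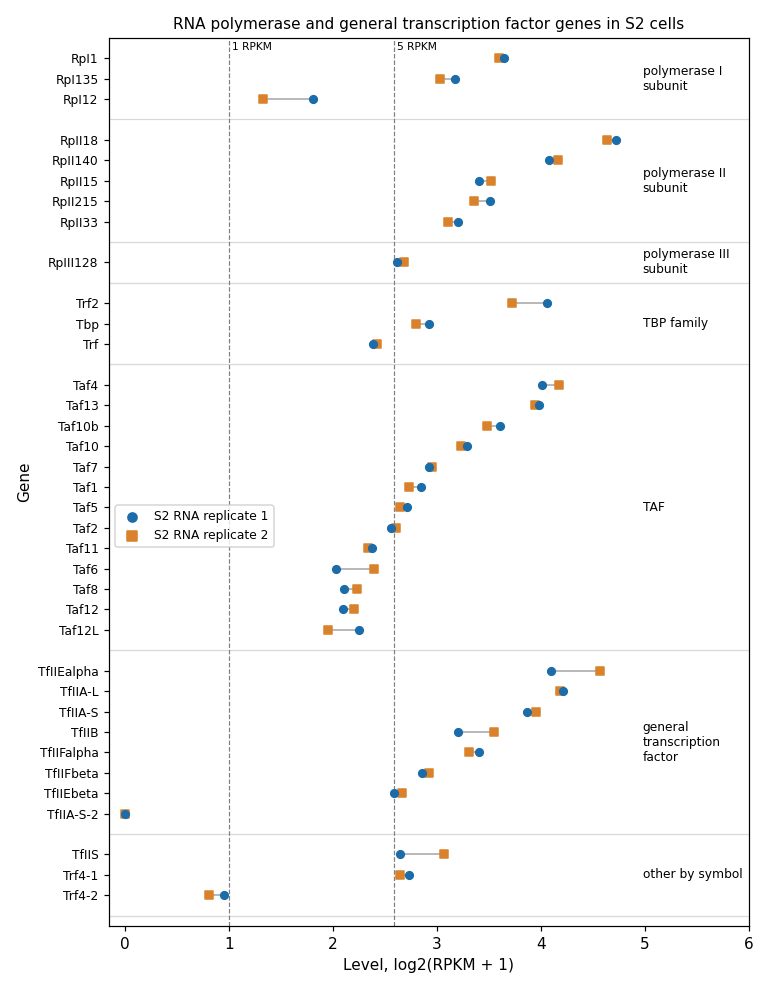
Level of each gene as log2(RPKM + 1) in S2 RNA replicate 1 (circles) and replicate 2 (squares), grouped by role, with dashed lines at 1 and 5 RPKM. The replicates of most genes nearly coincide, 27 genes have a mean at or above 5 RPKM, and TfIIA-S-2 lies at 0.

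Of the listed subunit genes, those of polymerase II had the highest median level, 10.1 RPKM, against 7.58 RPKM for polymerase I and 5.28 RPKM for the single polymerase III gene. RpII18, a small subunit that all 3 polymerases share, had 25.5 RPKM in the first library and 23.9 in the second, or 24.7 ± 1.09 RPKM (SD, n = 2). RpII140, the second largest subunit, which shapes the active centre, had 15.9 and 16.9 RPKM, or 16.4 ± 0.762 RPKM. Both lay above the other 3 members in each library, without overlap. RpII15, a small subunit involved in start site choice and transcript cleavage in yeast, had 9.63 and 10.5 RPKM, or 10.1 ± 0.618 RPKM. RpII215, the largest subunit, which carries the repeated C-terminal domain, had 10.4 and 9.27 RPKM, or 9.85 ± 0.817 RPKM. Its range overlaps that of RpII15, so the order of this pair is within the spread. RpII33, an assembly subunit, was the lowest at 8.22 and 7.62 RPKM, or 7.92 ± 0.431 RPKM. The transcripts of the largest and second largest subunits were thus not at equal levels. The log2 ratio of RpII215 to RpII140, taken here and for all pairs below as the difference of log2(RPKM + 1), was -0.56 and -0.80 in the replicates, with a mean of -0.68 ± 0.17 (SD, n = 2), and it rests on at least 2611 and 595 reads for RpII215 and at least 2218 and 607 for RpII140.

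The rule misses polymerase II subunits that carry Rpb symbols, which complete the 12-subunit enzyme. All 12 lay between 7.25 and 26.0 RPKM, a 3.58-fold range, with a median of 13.4 RPKM. Rpb12 had the highest mean, although its range overlaps those of RpII18 and Rpb11, and Rpb4 had the lowest. The 5 subunits shared with polymerases I and III (RpII18, Rpb5, Rpb8, Rpb10 and Rpb12) had a median of 21.3 RPKM and a range of 11.6 to 26.0 RPKM. The 7 that belong to polymerase II had a median of 9.83 RPKM, with Rpb11 at 24.6 ± 1.34 RPKM as the highest, so the ranges overlap. This division by enzyme was made after the values had been seen and has no test. The level and the recovered transcript length of the 12 genes had a Spearman correlation of -0.49, where it was 0.86 over the 7 polymerase I genes, -0.01 over the 10 polymerase III genes and 0.05 over the listed genes above 0. These values describe genes of the same libraries, which share depth, and they differ in direction between the enzymes. Recovered lengths are minimum values that can be a fraction of the true ones, so these correlations may not hold for true transcript length.

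Polymerase I was represented by 3 members. RpI1, its largest subunit, had 11.5 RPKM in the first library and 11.1 in the second, or 11.3 ± 0.298 RPKM (SD, n = 2). RpI135, the second largest, had 8.03 and 7.16 RPKM, or 7.59 ± 0.612 RPKM. The order of the pair was thus the opposite of that in polymerase II, with a log2 ratio of RpI1 to RpI135 of 0.47 and 0.57 in the replicates. RpI12, a small zinc-binding subunit, had 2.51 and 1.51 RPKM, or 2.01 ± 0.710 RPKM. Its mean was the lowest of the polymerase subunit genes measured here, but its range overlaps that of the polymerase III gene CG33051, at 2.40 and 2.64 RPKM, and its values rest on at least 39 and 6 reads. All 3 members were lower in replicate 2 than in replicate 1, and none had reads that differed between the libraries in the test given below. The 4 other genes with current polymerase I symbols lay between 4.33 and 6.89 RPKM, between RpI12 and RpI135.

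Polymerase III had the single member RpIII128, its second largest subunit, at 5.14 RPKM in the first library and 5.43 in the second, or 5.28 ± 0.204 RPKM (SD, n = 2). The genes for the second largest subunits can be compared across the enzymes. The log2 ratio of RpIII128 to RpII140 was -1.46 and -1.48 in the replicates, a mean of -1.47 ± 0.02. That of RpI135 to RpII140 was -0.90 and -1.14, a mean of -1.02 ± 0.17. The order RpII140, RpI135, RpIII128 therefore held in both libraries, with no overlap between neighbours. For the largest subunits the order differed, with RpI1 above RpII215 in both libraries and the polymerase III gene CG17209 lowest at 3.34 ± 0.308 RPKM. The 10 genes with current polymerase III symbols, RpIII128 included, ranged from 2.52 RPKM for CG33051 to 13.7 ± 2.34 RPKM for CG33785. The level of CG33785, 12.1 and 15.4 RPKM, has limits. Its reads differed between the libraries in the test given below, and its span overlaps the genes CG11110 and Tcs1. Genes were assigned by symbol, so a subunit shared by polymerases I and III appears only under the enzyme its symbol names.

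**Figure D2:**
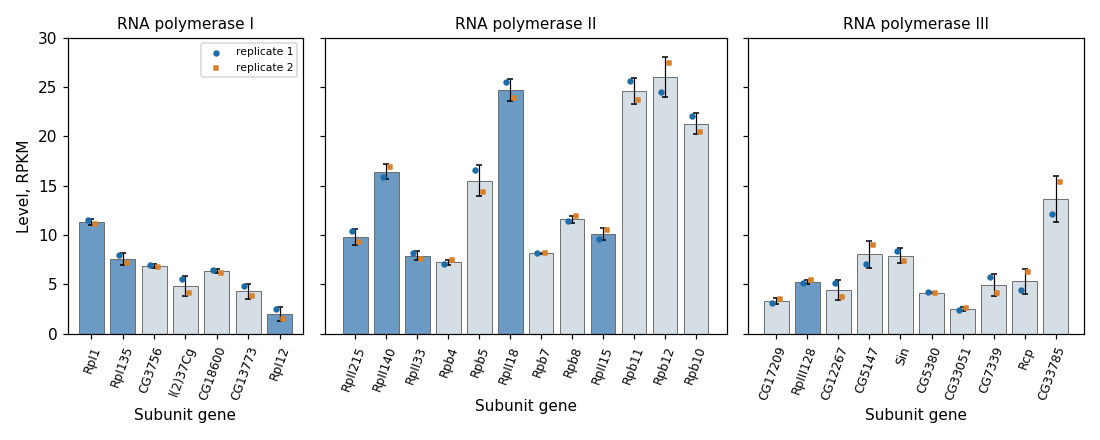
Level in RPKM of the subunit genes of RNA polymerases I, II and III, each placed under the enzyme its current symbol names. Bars are means and error bars the SD over the 2 S2 RNA libraries, dots and squares are replicates 1 and 2, and dark bars are the genes taken by the symbol rule. Subunits of polymerase II that are shared with the other enzymes are drawn under polymerase II, where RpII18 reaches 24.7 RPKM, against 5.28 RPKM for RpIII128.

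The TBP family was led by a TBP-related factor and not by TBP itself. Trf2, which lacks TATA-box binding and serves TATA-less promoters, had 15.7 RPKM in the first library and 12.2 in the second, or 14.0 ± 2.45 RPKM (SD, n = 2). Tbp had 6.60 and 5.97 RPKM, or 6.29 ± 0.452 RPKM. Trf, which takes the place of TBP at polymerase III promoters in Drosophila, had 4.23 and 4.39 RPKM, or 4.31 ± 0.116 RPKM. The values of the 3 genes did not overlap in either library. The log2 ratio of Trf2 to Tbp was 1.14 and 0.93, a mean of 1.03 ± 0.15, and that of Trf to Tbp was -0.54 and -0.37, a mean of -0.45 ± 0.12. The level of Trf2 carries a larger spread than those of the others, as its reads differed between the libraries.

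The 13 TAF genes were all expressed, with a median of 5.41 RPKM and a 4.84-fold range, and 8 of them reached 5 RPKM. Taf4, a histone-fold subunit that contacts activators and is needed for a stable TFIID, was highest at 15.1 RPKM in the first library and 17.1 in the second, or 16.1 ± 1.35 RPKM (SD, n = 2). Taf13, a histone-fold subunit that pairs with Taf11, followed at 14.8 and 14.4 RPKM, or 14.6 ± 0.286 RPKM. Its partner Taf11 had only 4.20 and 4.07 RPKM, or 4.13 ± 0.0967 RPKM, so the genes of this pair lay far apart relative to their spread. Taf4 likewise exceeded its histone-fold partner Taf12, which had 3.29 and 3.62 RPKM, or 3.46 ± 0.228 RPKM. The paralogues Taf10b and Taf10 were nearer to each other, at 10.7 ± 0.725 and 8.61 ± 0.293 RPKM, with Taf10b the higher in both libraries.

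Of the remaining TAF genes, 4 had means between 5.01 and 6.67 RPKM. Taf1, the largest subunit, had 6.21 RPKM in the first library and 5.65 in the second, and Taf7, which binds Taf1, had 6.59 and 6.74 RPKM. Taf5, a WD40-repeat subunit, had 5.56 and 5.27 RPKM, and Taf2, which contacts the initiator, had 4.91 and 5.11 RPKM. Among these 4 genes, which are grouped here by their levels, Taf7 did not overlap the others in either library. Below 4 RPKM were Taf6, a histone-fold subunit that pairs with Taf9, at 3.10 and 4.25 RPKM, and Taf8, the partner of Taf10, at 3.30 and 3.69 RPKM. The lowest TAF was Taf12L, at 3.77 and 2.88 RPKM, or 3.33 ± 0.629 RPKM. Taf6, Taf8, Taf12 and Taf12L overlapped one another between the replicates and have no resolved order.

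Taf12L is the male germ line paralogue of Taf12, and the levels of the germ line gene and the general one overlapped between libraries. The log2 ratio of Taf12 to Taf12L was -0.15 and 0.25 in the replicates, with a mean of 0.05 ± 0.28 (SD, n = 2). The 4 other testis TAF paralogues, which the rule does not take, fell into separate levels. The Taf6 paralogue mia had 3.76 and 3.38 RPKM, or 3.57 ± 0.268 RPKM, on at least 139 and 32 reads, near Taf6 itself. The Taf4 paralogue nht was at 0 in both libraries, the Taf5 paralogue can was at 0 in replicate 1 and 0.0713 RPKM in replicate 2, and the Taf8 paralogue sa had 0.0282 and 0.110 RPKM on at least 1 read in each. Of the 5 testis paralogues, Taf12L and mia were therefore above 1 RPKM and the others were not detectable above a few reads at this depth. The part of the male germ line marker topi, which was also expressed, in these values was not tested. The symbol table places Taf12L on a span that overlaps the gene dcma, and how reads from such spans were assigned is not stated.

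Among the general transcription factors, 7 of 8 genes were expressed and all 7 reached 5 RPKM. TfIIEalpha, the large subunit of TFIIE, which brings TFIIH to the promoter, was highest at 16.1 RPKM in the first library and 22.7 in the second, or 19.4 ± 4.66 RPKM (SD, n = 2). Its partner TfIIEbeta had 5.01 and 5.34 RPKM, or 5.17 ± 0.240 RPKM. Among the pairs of partner subunits compared by ratio this gap was the widest. Its log2 ratio was 1.51 and 1.90, a mean of 1.70 ± 0.28. Those pairs did not include the histone-fold partners Taf4 and Taf12, with means of 16.1 and 3.46 RPKM. The TFIIE gap was thus present in each library and larger than its spread, although its size depended on the library. The TFIIF subunits, which escort the polymerase to the promoter, were closer, with TfIIFalpha at 9.27 ± 0.503 RPKM and TfIIFbeta at 6.41 ± 0.259 RPKM. Their log2 ratio was 0.56 and 0.38, a mean of 0.47 ± 0.12.

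The TFIIA genes encode a large precursor, TfIIA-L, which is cut into the alpha and beta chains, and a small chain, TfIIA-S, and the complex steadies TBP on DNA. TfIIA-L had 17.6 RPKM in the first library and 17.2 in the second, or 17.4 ± 0.339 RPKM (SD, n = 2). TfIIA-S had 13.6 and 14.5 RPKM, or 14.1 ± 0.609 RPKM. Among the same pairs of partner subunits this one was the most even, with a mean log2 ratio of 0.29 ± 0.08. The paralogue TfIIA-S-2 was at 0 in both libraries, where 3 reads on a transcript of 1 kb would give 0.0810 RPKM in the first library and 0.316 in the second. These limits cover counting error only and are higher for a shorter transcript, and the length of TfIIA-S-2 could not be recovered from values of 0, so they give a scale and no bound for that gene. TfIIB, the single-chain factor that joins TBP to the polymerase, had 8.23 and 10.7 RPKM, or 9.44 ± 1.72 RPKM.

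The rule also takes 3 genes that are neither polymerase subunits nor general initiation factors. TfIIS, an elongation factor that helps a stalled polymerase II cut its transcript, had 5.27 RPKM in the first library and 7.39 in the second, or 6.33 ± 1.50 RPKM (SD, n = 2). Trf4-1 encodes a non-canonical poly(A) polymerase that works with the nuclear exosome, and had 5.65 and 5.27 RPKM, or 5.46 ± 0.269 RPKM. Its paralogue Trf4-2 had 0.933 and 0.754 RPKM and was below Trf4-1 in both libraries. These symbols resemble that of Trf by abbreviation and the proteins are not TBP relatives.

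**Figure D3:**
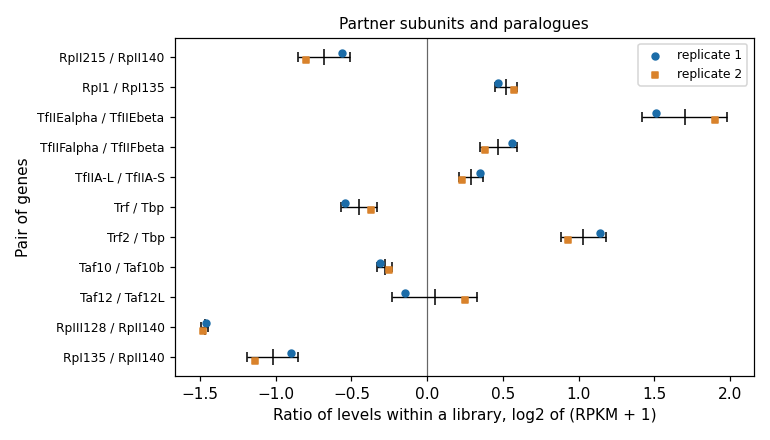
Ratio of the levels of partner subunits and paralogues within each library, as the difference of log2(RPKM + 1), for 11 pairs. Circles and squares are replicates 1 and 2, ticks are means and error bars the SD over both libraries. Both replicates lie on the same side of 0 for all pairs but Taf12 / Taf12L, from -1.47 for RpIII128 / RpII140 to 1.70 for TfIIEalpha / TfIIEbeta.

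Of the 11 pairs with a ratio, 10 had the same sign in both libraries, and in all 10 the values of the partner genes did not overlap between libraries. Across the whole order of the 35 genes above 0, the replicates overlapped in 22 of the 34 pairs of neighbours, so most single steps of the order are not resolved. The steps with the largest folds between means were at the low end, where RpI12 stood 2.38-fold above Trf4-2 and 1.66-fold below Taf12L, without overlap. RpII18 at the top had a mean 1.28-fold above that of TfIIEalpha, but in replicate 2 the genes were close, at 23.9 and 22.7 RPKM. In between, the groups from RpI1 to TfIIFalpha, from Taf7 to Taf1 and from Trf4-1 to Taf2 each consisted of neighbours that overlapped. Such groups rest on adjacent pairs alone, so their limits are not resolved. TfIIS, at 5.27 and 7.39 RPKM, overlaps both RpI135 above its group and Trf4-1 below it.

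The replicates lay close together for most of these genes. The members had a median coefficient of variation of 5.44% over the 2 libraries, where the 6765 genes within their range of levels had 9.39%. Those genes are matched on the extremes of level only. Of them, 3553 were at 5 RPKM or more, against 27 of the 36 members. The 4493 genes at 5 RPKM or more had 8.23%. The part of level in the gap was not tested. None (0) of the 27 members at 5 RPKM or more was over 2-fold apart on the log2(RPKM + 1) scale, where 23 of 4493 genes (0.512%) were. The log2 difference (replicate 2 minus replicate 1) lay between -0.49 for RpI12 and 0.47 for TfIIEalpha, with a median of -0.04.

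Reads recovered from the values allowed an exact two-sided binomial test of each gene against the share of replicate 2 in all reads, 20.4%, with Benjamini-Hochberg adjustment over 11042 genes. The test compares these libraries with each other and not a condition. Of the 35 members tested, 4 (11.4%) had an adjusted p under 0.05, against 11.7% of all genes tested and 16.4% of those with at least as many reads as the member with the fewest. The share is that of the background and is not a property of the list. Higher in replicate 2 were 3 members, where 7.34% of all genes were, and higher in replicate 1 was 1 member, where 4.39% were. TfIIEalpha was higher in replicate 2, with at least 349 reads against at least 966 in the deeper replicate 1, a log2 difference of 0.50 after scaling by library size (exact binomial test, adjusted p = 2.68e-06). Trf2 was lower in replicate 2, with a log2 difference of -0.34 (exact binomial test, adjusted p = 1.08e-11), and all 6 of its transcript entries were lower there. TfIIS was higher in replicate 2 with a log2 difference of 0.49 (exact binomial test, adjusted p = 0.0316) and Taf4 with one of 0.17 (adjusted p = 0.0356). With library sizes set so that the median ratio over genes is 1, which moves log2 differences by 0.05, TfIIS and Taf4 had adjusted p-values of 0.0619 and 0.197, and RpII215, with a log2 difference of -0.17 before that scaling, went from 0.0729 to 0.00903. TfIIB and Taf6, which looked higher in replicate 2, had adjusted p-values of 0.228 and 0.102. The test used the minimum reads recovered, so a factor shared by reads and length can make a p-value too large. A gene without a call may therefore still differ.

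**Figure D4:**
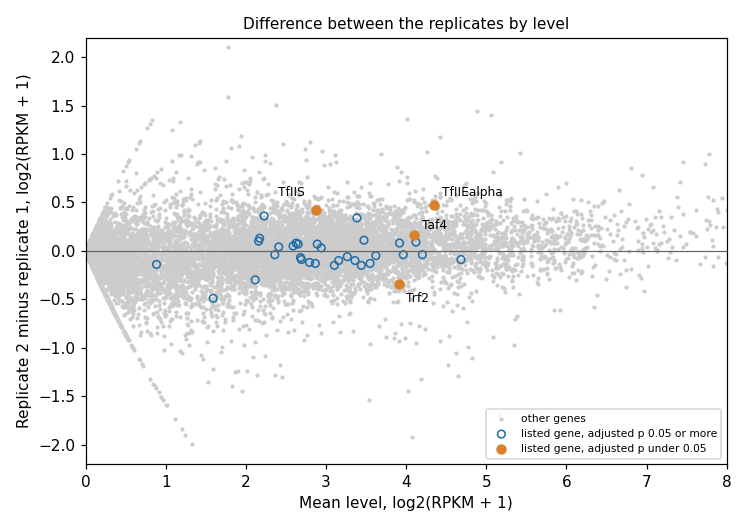
Difference between the replicates, log2(RPKM + 1) of replicate 2 minus replicate 1, against the mean level for the 35 listed genes above 0 and, in grey, the other genes above 0 within the axes. Filled points mark the 4 genes with an adjusted p under 0.05 in the exact binomial test on reads, TfIIEalpha, TfIIS, Taf4 and Trf2, and all listed genes lie between -0.49 and 0.47.

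The 14 genes with several transcript entries show how far the choice of transcript matters for the level. In 11 of them the highest entry was within 1.2-fold of the lowest. For RpII15, TfIIEbeta and Taf6 both entries carried the same recovered reads, for example at least 254 and 71 reads for each entry of RpII15 over 708 and 715 bases, so that the entries differ by length alone and a sum over entries would count the same reads again. Trf4-1 had the widest range, 1.53-fold, and its 7 entries fell into a group of 5 at 5.29 to 5.62 RPKM and a group of 2 at 3.66 and 3.71 RPKM. The entry NM_001103443 had 853 and 206 reads over 3981 bases, and NM_001103444 had 907 and 226 reads over 6507 bases, so the longer entry gained few reads for its length. Taf12 ranged from 2.78 to 3.89 RPKM over 4 entries, which kept it near Taf12L whichever entry was used. TfIIS had 4.70 and 6.59 RPKM for one entry and 5.84 and 8.19 RPKM for the other, so replicate 2 was the higher for both. The 6 entries of Trf2 ran from 12.9 to 15.0 RPKM as means, and every one exceeded Tbp in both libraries, including the longest, with at least 5388 and 1088 reads over 10041 bases. The 8 entries of Taf4 lay between 14.9 and 16.5 RPKM.

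**Figure D5:**
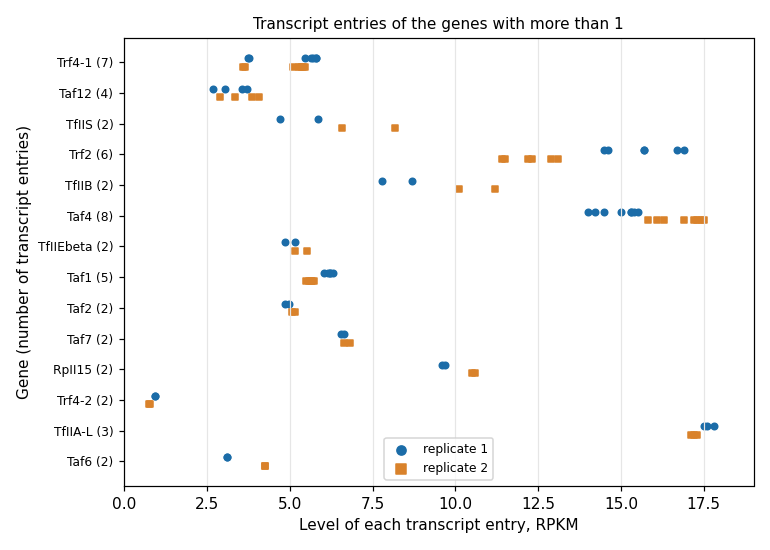
Level in RPKM of each transcript entry in replicate 1 (circles) and replicate 2 (squares) for the 14 genes with more than 1 entry, ordered by the ratio of the highest to the lowest entry. Trf4-1 separates into entries with means of 3.66 and 3.71 RPKM and entries from 5.29 to 5.62 RPKM, and the entries of Taf6, TfIIA-L and RpII15 nearly coincide within a library.

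Some levels may include reads of neighbours. In the reference annotation, which is of a later genome release than the alignment, 17 of the 36 genes overlap another gene, among them TfIIA-L with pll, Taf13 with Pyroxd1, Trf2 with lawc, Tbp with eIF3k and RpI12 with CG6800. The counting is not stated to use strand, so reads of such partners cannot be told apart. The 19 genes with no overlap had a median of 7.58 RPKM, and 13 of them reached 5 RPKM. The 17 with an overlap had a median of 6.41 RPKM, and 14 reached 5 RPKM.

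Other genes of the initiation machinery lay in the same range. Beyond the symbol rule, 50 genes of polymerases, TAFs, TFIIH and related factors were examined. Of these, 47 had a mean of at least 1 RPKM and 27 at least 5 RPKM, where 49.5% and 29.5% of all genes did. The 3 below 1 RPKM were the testis paralogues nht, can and sa. Of the 22 further polymerase genes, all exceeded 1 RPKM, from CG33051 at 2.52 RPKM to Rpb12 at 26.0 RPKM. They include the mitochondrial enzyme mtRNApol at 4.90 ± 0.263 RPKM. Reads differed between the libraries for 1 of them, CG33785, which was higher in replicate 2 (exact binomial test, adjusted p = 0.0442). Of all genes tested, 11.7% differed. The TAFs that carry other symbols completed TFIID, with e(y)1, the fly Taf9, at 3.29 ± 0.452 RPKM and bip2, the fly Taf3, at 8.61 ± 1.12 RPKM. Reads of bip2 and of the TFIIH gene Ssl1 were also higher in replicate 2 (exact binomial test, adjusted p = 0.0168 and 0.0335). Those of Hel89B, described below, were lower. All 10 TFIIH genes exceeded 1 RPKM, from the kinase gene Cdk7 at 2.85 ± 0.211 RPKM to Tfb1 at 18.7 ± 0.718 RPKM (SD, n = 2), with a median of 5.25 RPKM, near that of the TAFs.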

How the data were processed

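Total RNA was depleted of ribosomal RNA and sequenced as 50 bp single-end reads. Per the labels, the submitters' processing notes name the build dm3 and TopHat2 (version 2.4, as listed), and the methods of the study name TopHat and release 5 of the genome. The authors deposited RPKM per RefSeq transcript and library. The program that made these values, how reads with several alignments were counted and whether strand was used are not given in the sources used here. Unlisted value columns numbered 0.

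Genes were matched to the NCBI table of assembly Release 6 plus ISO1 MT for names, gene lengths and neighbours only, and all 36 members matched. Library sizes were read from the most common product of RPKM and length over 7393 genes with 1 transcript, which is the step of 1 read, and 99.6% of the 23661 entries above 0 in each of the libraries yielded a whole number of reads over a whole length (tolerance 0.002 bases). These reads are minimum values, since a factor shared by reads and length is unseen. The test used the entry of each gene with the most reads, and steps were tested on simulated data. The reads carry no molecular identifiers and may include copies of a molecule, so read tests and limits cover counting error only. Fold differences use a pseudocount of 1.

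The members, lists and pairs were chosen with earlier results of these data known. Named genes are all members and, from fixed lists of 86 names (4 unmatched), the highest and lowest of each list and those the results turn on. The subunits shared by the polymerases were grouped after the values were seen. Analyses used Python 3.11.15, pandas 2.3.3, numpy 2.4.6 and scipy 1.17.1. Alternatives were another pseudocount, minimum levels, the mean or highest transcript, scaling, other read minimums, each library alone and members with no overlapping gene.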

Additional observations from a re-analysis of the deposited data

How the results depend on the processing

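No paired analysis was possible because the values used here are of the S2 RNA group alone. A comparison of Ph-ML with Ph-WT ChIP was neither planned nor run. The 34 members at 1 RPKM were 34 under every alternative but the added one, and the 27 at 5 RPKM were 26 or 27. The added one, chosen after seeing the data, left out members whose span overlaps another gene, which leaves 19 genes, of which 18 reached 1 RPKM and 13 reached 5 RPKM, with a median of 7.58 RPKM. The median level of 6.54 RPKM was 7.11 RPKM for members with a mean of at least 1 RPKM, which leaves out the lowest genes, and 6.83 RPKM with the highest transcript of each gene. Without 1 replicate the counts were from 34 to 34 at 1 RPKM and from 26 to 27 at 5 RPKM, and the median ranged from 6.60 to 6.95 RPKM. No member (0) was over 2-fold apart between replicates under any alternative. The 4 members whose reads differed became 3 after scaling, with TfIIS and Taf4 lost and RpII215 gained, and were 4 with a minimum of 20 reads. Of 44 ratios under alternatives for the 11 pairs, 0 reversed among pairs with 1 sign in both libraries. The ratios of each library alone could not reverse in such pairs. Only the other pseudocount and the highest transcript could have reversed them. With a pseudocount of 0.1 the mean log2 ratio of RpIII128 to RpII140 moved beyond its spread, from -1.47 to -1.62, the 1 value that moved. RpI12 had the fewest reads of the members tested, at least 6 in replicate 2.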

Other observations

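The polymerase III and I factors and the TBP regulators examined were all above 1 RPKM. Tif-IA brings polymerase I to the ribosomal RNA genes. It had 15.5 RPKM in the first library and 17.9 in the second, or 16.7 ± 1.64 RPKM (SD, n = 2). That was above every gene with a current polymerase I symbol, but not above the shared subunit RpII18 at 24.7 RPKM. The polymerase III factors Brf and Bdp1 (CG9305 in the table) had 4.69 ± 0.438 and 4.81 ± 0.852 RPKM, near RpIII128. The subunits of the complex that binds small nuclear RNA promoters were uneven, with Pbp49 at 7.05 ± 0.0606 RPKM, Pbp95 at 1.51 ± 0.332 RPKM and Pbp45 at 1.28 ± 0.143 RPKM.

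Among genes that act on TBP or its relatives, Dref, a partner of Trf2, had 14.3 RPKM in each library, beside 14.0 ± 2.45 RPKM for Trf2. Hel89B, the fly form of an ATPase that removes TBP from DNA, had 14.9 RPKM in the first library and 10.7 in the second. Its reads, at least 3576 and 660, were lower in replicate 2, with a log2 difference of -0.47 (exact binomial test over all genes, adjusted p = 6.35e-14). The repressor subunits NC2alpha and NC2beta had 2.66 ± 0.262 and 6.36 ± 0.849 RPKM.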
